A study of Mus musculus and Acomys cahirinus with 25 samples.

Results

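The African spiny mouse, Acomys cahirinus, regrows skin with hair follicles over large wounds, and the comparison described here sets the 2 layers of such a wound side by side on post-wound day 21 (PWD21). It covers 4 of the 25 libraries of the series, 2 of dorsal epidermis and 2 of dorsal dermis, chosen by their labelled species, tissue and day and not by any measured value. Both groups were wild-type animals with no added gene or drug. Square full-thickness wounds were made on the backs of 8-week-old animals of both sexes, the whole wound was taken and its layers were parted by hand after trypsin treatment. Per the study's methods the dermis was then frozen in liquid nitrogen and ground, while for the epidermis only collection is described. Handling after parting therefore differed with layer. How many animals went into a library and which epidermis belonged to which dermis were not given by the labels. The p-values below therefore measure the spread between library pairs, which may be technical.

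Skin is built from an epithelium of keratinocytes lying on a dermis of fibroblasts, vessels, nerves and immune cells. Keratinocytes divide in the basal layer, which is anchored to a basement membrane, and then withdraw upwards, changing their keratins and building the cornified layer and its lipids. Hair follicles arise where epithelial placodes and condensates of dermal cells exchange Wnt, hedgehog, FGF, BMP and ectodysplasin signals, so the layer in which a ligand or its receptor is transcribed is central to how the exchange is read.

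Reads on genes numbered 33831242 and 17515032 in the epidermis libraries and 21927269 and 34751956 in those of dermis. Levels are given as CPM, counts scaled to a common library size after TMM normalization, in the order library 1 and library 2, and the 3 reads taken as the smallest detectable amount came to between 0.0846 and 0.172 CPM. Spiny mouse reads were aligned to the genome of the laboratory mouse, and low alignment quality set aside 52.6% and 50.03% of the epidermis reads and 44.8% and 38.0% of the dermis reads. A low count can therefore mean diverged or repeated sequence: the household gene Gapdh stood at 1.06 and 1.09 CPM in epidermis and 0.300 and 0.479 in dermis. Both library pairs differed by far more than counting noise (chi-square per degree of freedom 30.1 in epidermis and 108 in dermis).

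The layers differed widely, and keratinocyte and dermal matrix genes lay on the side their labels give. Of 14966 genes tested with edgeR's quasi-likelihood test, 62.4% passed an FDR of 0.05, with 4357 genes (29.1%) higher in epidermis and 4976 (33.2%) higher in dermis. Differences larger than 2-fold were fitted for 3178 of the former and 4436 of the latter, and log2 differences over 5 for 427 and 1043. Fold changes are epidermis over dermis throughout, and their median over all tested genes was -0.06 on the log2 scale. In simulated counts of 2 against 2 libraries with 200 genes changed, 10.6% of calls were false and 23.2% of 2-fold changes were recovered. Far more genes passed here, and the FDR adjustment depends on that number, so neither share carries over to this comparison. The counts of passing genes may still be too high, and a gene that did not pass may still differ. In whole-tissue RNA, fewer cells of a type and less RNA per cell cannot be told apart.

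**Figure D1:**
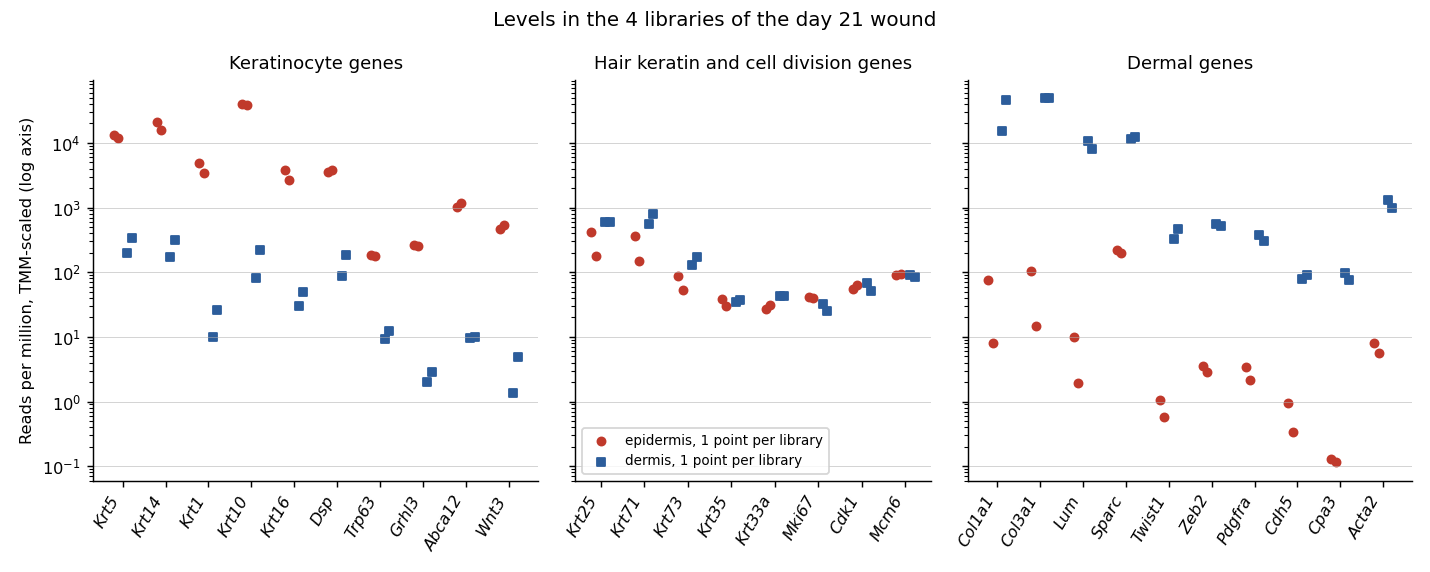
Levels of selected genes in the 4 libraries, in TMM-scaled CPM on a log axis, with 1 point per library (circles epidermis, squares dermis). Keratinocyte genes sit higher in both epidermis libraries and dermal genes higher in both dermis libraries, while the hair keratins and cell division genes lie much closer together in the 2 layers.

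Among genes of at least 50 CPM whose layers did not overlap, the 15 with the largest epidermal excess were Elf3, Otop3, Serpinb3b, Il1f9, Hrnr, Krt77, Lce1m, 2310050C09Rik, Klk9, Hal, Krt10, Krt24, Krt78, Lce1a2 and Aadacl2. Elf3, an epithelial Ets-family transcription factor, was measured at 59.8 and 41.3 CPM in epidermis and at 0 and 0.197 in dermis (log2 fold change 8.70 ± 0.60 SE, FDR 1.97e-05). Il1f9, an older symbol for the epidermal cytokine IL-36 gamma, stood at 192 and 220 CPM against 0.257 and 0.818. Hal, the histidine ammonia-lyase that makes the urocanic acid of the cornified layer, stood at 2209 and 2363 CPM against 4.07 and 12.5. Dermis library 2 was the higher of the dermis pair for each of the 15. The Lce1 and Serpinb3 genes belong to families of closely similar copies, whose reads the alignment may have divided.

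At the dermal end the 15 genes were Masp1, Nnmt, Egfl6, Tmem26, Itga11, Pdgfd, Mcpt4, Lum, Mfap4, Mmp27, Enpp3, Epha3, Islr, Cdh11 and Fbln5. Masp1, a protease of the lectin pathway of complement, had 46.8 and 53.9 CPM in dermis and no read in either epidermis library, so that it was at least 293-fold higher in dermis. Egfl6, a secreted matrix protein with EGF repeats, stood at 439 and 351 CPM in dermis and at 0.192 and 0.172 in epidermis (log2 -11.03 ± 0.35 SE, FDR 5.43e-06). Nnmt, nicotinamide N-methyltransferase, rested on 1 read in epidermis, and its ratio of 2622 had a 95% counting interval of 470 to 103586. Itga11, a collagen-binding integrin subunit, stood at 214 and 286 CPM in dermis against 0.192 and 0.0573. The most that any of them reached in epidermis was the 10.1 CPM of Lum in library 1.

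Genes of the basal, suprabasal and wound-activated keratinocyte were higher in epidermis with few exceptions. Of the basal keratinocyte list, 10 of 12 tested genes were higher in epidermis and 1 in dermis, of the suprabasal and cornified list 15 of 15, and of the wound-activated list 11 of 11. The median log2 fold changes were 4.19, 7.14 and 5.80, against -0.06 for all genes. Krt14 (chromosome 11, 100203162 to 100207510 on GRCm38), the basal type I keratin, stood at 20672 and 15655 CPM in epidermis and 169 and 313 in dermis (log2 6.24 ± 0.50 SE, FDR 3.99e-05). Krt10 (chromosome 11, 99385254 to 99397449), the keratin taken up on leaving the basal layer, stood at 39963 and 38046 CPM against 81.0 and 222 (log2 8.01 ± 0.70, FDR 5.62e-05). Krt16, induced when keratinocytes are activated by wounding, stood at 3800 and 2694 CPM against 29.9 and 49.6 (log2 6.35 ± 0.41, FDR 1.53e-05).

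The basal list had an exception in Dst, which encodes dystonins including the hemidesmosomal plaque protein BPAG1 and forms used by nerve and muscle. It was measured at 145 and 181 CPM in epidermis and 330 and 311 in dermis (log2 -0.98 ± 0.21, FDR 0.0047), and did not pass without epidermis library 1 (FDR 0.0673). Itga6, the laminin-binding integrin of hemidesmosomes, did not pass the test, with 62.4 and 63.3 CPM against 38.7 and 55.4 (log2 0.42 ± 0.23, FDR 0.149). S100a8 had almost no reads in any library while S100a9, its partner in calprotectin, was measured at 441 and 181 CPM in epidermis and 6.08 and 5.08 in dermis. Flg, the filaggrin gene, was not in the count files, and the related hornerin gene Hrnr stood at 337 and 421 CPM against 0.471 and 1.75.

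Junction and barrier genes were higher in epidermis throughout their lists. All 15 epithelial junction genes, all 15 barrier lipid genes and all 16 epithelial transcription and splicing factors passed in that direction, with median log2 fold changes of 4.31, 5.99 and 4.12. Dsp, the desmosomal plaque protein, stood at 3567 and 3851 CPM against 88.2 and 188 (log2 4.75 ± 0.43, FDR 7.07e-05). Abca12, the lipid transporter of lamellar granules, stood at 1012 and 1163 CPM against 9.51 and 9.93 (log2 6.81 ± 0.27, FDR 5.43e-06). Trp63, the p63 master regulator of stratified epithelium, stood at 186 and 176 CPM against 9.38 and 12.2 (log2 4.06 ± 0.23, FDR 9.62e-06). The smallest difference was that of Dsc2, a desmosomal cadherin, at 17.5 and 18.4 CPM against 10.5 and 10.5 (log2 0.77 ± 0.23, FDR 0.0203), which did not pass without epidermis library 1 or 2 (FDR 0.0972 and 0.13).

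Several junction genes are classical targets of the repressors Zeb1, Zeb2, Snai1 and Snai2, which bind the E-box CAGGTG and which were all higher in dermis. Promoters of the laboratory mouse from RefSeq, on GRCm38.p6, were searched for CAGGTG on either strand in the 250 bases before the annotated start. Of the 31 junction and epithelial factor genes, 12 had an entry and 5 of these (Cldn4, Ocln, Epcam, Grhl3 and Elf3) held the letters. Dsp, Jup, Cldn1, Grhl1, Klf4, Gata3 and Tfap2a did not, and Cdh1 had no entry. A gene counted if any of its entries held the letters. Of all 32851 promoter entries 17.2% held them, a share of entries and not of genes. Among tested genes with an entry the share of genes was 21.8% of those higher in epidermis, 17.7% of those higher in dermis and 18.4% of those that did not pass. The promoters of 3 of them are printed 5′ to 3′ on the gene's strand to show where the E-boxes lie, with the matches in capitals: Epcam, an adhesion protein of epithelia (chr17:87635729-87635978, plus strand), with 2 matches, Elf3 (chr1:135258473-135258722, minus strand) and Grhl3, a grainyhead factor of barrier formation (chr4:135573633-135573882, minus strand), with 1 each.
Epcam: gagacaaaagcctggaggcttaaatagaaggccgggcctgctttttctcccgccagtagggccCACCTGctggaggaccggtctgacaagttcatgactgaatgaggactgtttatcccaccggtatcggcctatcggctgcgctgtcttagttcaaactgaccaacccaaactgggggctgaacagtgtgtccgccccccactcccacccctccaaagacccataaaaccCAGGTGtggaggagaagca
Elf3: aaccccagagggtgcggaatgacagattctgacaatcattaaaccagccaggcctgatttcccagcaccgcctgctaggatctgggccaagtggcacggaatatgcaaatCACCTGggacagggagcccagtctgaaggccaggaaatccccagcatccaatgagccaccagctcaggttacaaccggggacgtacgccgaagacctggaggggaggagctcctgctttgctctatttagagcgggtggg
Grhl3: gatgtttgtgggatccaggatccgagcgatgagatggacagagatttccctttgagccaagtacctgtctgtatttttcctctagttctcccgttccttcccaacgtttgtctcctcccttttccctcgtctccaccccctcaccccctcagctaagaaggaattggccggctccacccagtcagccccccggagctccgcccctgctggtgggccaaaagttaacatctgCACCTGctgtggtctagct
Grhl3 stood at 264 and 258 CPM in epidermis and 1.97 and 2.88 in dermis, and Epcam at 254 and 236 against 10.8 and 13.9. The sequences are those of the laboratory mouse and a match of letters is a description, not a bound site.

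The repressors and other drivers of mesenchymal identity formed the mirror image, with all 8 tested members of the list higher in dermis (median log2 -6.70). Twist1 (chromosome 12, 33957671 to 33959831), a basic helix-loop-helix factor of mesenchyme, stood at 1.06 and 0.573 CPM in epidermis and 325 and 466 in dermis (log2 -8.84 ± 0.40, FDR 5.85e-06). Zeb2, a zinc finger repressor of E-cadherin, stood at 3.49 and 2.87 CPM against 547 and 523 (log2 -7.38 ± 0.27, FDR 5.43e-06). Snai2 was the member with the smallest difference, at 12.4 and 10.9 CPM in epidermis against 72.6 and 74.9 in dermis (log2 -2.66 ± 0.21, FDR 3.41e-05), and its epidermis libraries held 16.8% and 14.8% of its mean dermis level. For Twist1 the same shares were 0.267% and 0.145%. The 24 dermal matrix genes, described next, had median shares of 0.482% in epidermis library 1 and 0.0837% in epidermis library 2, and the part of dermal RNA in the low epidermal Twist1 level was not tested.

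All 24 genes of the dermal matrix list were higher in dermis, with a median log2 fold change of -8.40. Col1a1 (chromosome 11, 94936224 to 94953042), the alpha-1 chain of collagen I, stood at 75.0 and 7.97 CPM in epidermis and 15192 and 46420 in dermis (log2 -9.53 ± 1.34, FDR 0.000639). Col3a1 stood at 106 and 14.8 CPM against 49127 and 49450 (log2 -9.67 ± 1.13, FDR 0.000239). Lum, the collagen-fibril proteoglycan lumican, stood at 10.1 and 1.95 CPM against 10722 and 7916 (log2 -10.56 ± 0.92, FDR 5.61e-05). For these genes epidermis library 1 was several times higher than library 2, while the dermis libraries stood apart most for Col1a1, which was higher in library 2.

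Some matrix genes were measured in the epidermis at nearly the same level in both libraries. Postn, the matricellular protein periostin, stood at 1285 and 1520 CPM in epidermis and 11838 and 8245 in dermis (log2 -2.84 ± 0.35, FDR 0.00031). Col12a1, a fibril-associated collagen, stood at 105 and 128 CPM against 1623 and 1353 (log2 -3.68 ± 0.26, FDR 2.2e-05). Sparc, a collagen-binding glycoprotein, stood at 219 and 201 CPM against 11628 and 12190. Col1a2 was unlike them, at 92.9 and 9.28 CPM in epidermis.

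Fibroblast identity genes followed the matrix, with 13 of 15 higher in dermis and a median of -8.15. Pdgfra, a receptor marking dermal fibroblasts, stood at 382 and 299 CPM in dermis and 3.43 and 2.18 in epidermis (log2 -6.90 ± 0.33, FDR 6.63e-06). Crabp1, a retinoic acid binding protein of upper dermal fibroblasts, stood at 365 and 289 CPM against 1.73 and 1.49. Thy1 went the other way, at 238 and 263 CPM in epidermis and 66.9 and 42.2 in dermis (log2 2.20 ± 0.26, FDR 0.000276). Thy1 is a surface protein of fibroblasts that T cells of mouse epidermis also carry. Dpp4, a marker of some fibroblast lineages, did not pass, at 12.7 and 14.4 CPM against 11.4 and 12.6.

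All 13 contractile genes were higher in dermis (median -5.61), from Tagln, a smooth muscle and myofibroblast protein, at 1681 and 1248 CPM against 12.7 and 4.07, to Myh9, the broadly expressed non-muscle myosin heavy chain, at 833 and 992 CPM against 482 and 417 (log2 -1.02 ± 0.23, FDR 0.00572). Collagen crosslinking and processing enzymes were higher in dermis in 15 of 16 cases (median -5.004). Pcolce, which enhances the trimming of procollagen, stood at 2972 and 2190 CPM in dermis and 5.29 and 1.66 in epidermis (log2 -9.49 ± 0.64, FDR 1.77e-05). Plod2, a lysyl hydroxylase, was the member that did not pass, and its libraries disagreed within both layers, at 17.5 and 40.1 CPM in epidermis and 46.2 and 13.8 in dermis (log2 -0.06 ± 0.58, FDR 0.935).

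Matrix metalloproteinases were dermal or in neither layer's favour. Of 13 tested proteases 8 were higher in dermis and 5 did not pass, and all 5 inhibitors were higher in dermis. The shares over all tested genes were 33.2% higher in dermis, 29.1% higher in epidermis and 62.4% in either direction. Mmp11, the stromal stromelysin-3, stood at 967 and 865 CPM in dermis and 1.19 and 0.860 in epidermis (log2 -9.77 ± 0.33, FDR 5.43e-06). Mmp2, gelatinase A, stood at 2798 and 3314 CPM against 24.6 and 21.5. Mmp9, gelatinase B, had 65.7 and 24.4 CPM in epidermis and 38.0 and 20.5 in dermis (log2 0.63 ± 0.48, FDR 0.278), and Mmp13, a collagenase, had 49.98 and 7.45 against 80.8 and 6.68 (log2 -0.59 ± 1.09, FDR 0.66). For both of these the library 1 of each layer was the higher, and the layers overlapped.

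The basement membrane list divided by subunit. Of 30 genes, 7 were higher in epidermis, 18 in dermis and 5 did not pass, beside 29.1% and 33.2% of all tested genes higher in each layer. Lama3 and Lamb3, laminin chains made by basal keratinocytes, were epidermal, Lama3 at 198 and 213 CPM against 27.6 and 34.9 and Lamb3 at 152 and 106 against 4.28 and 8.52. Col17a1, the transmembrane collagen of hemidesmosomes, stood at 593 and 545 CPM in epidermis and 14.1 and 34.3 in dermis (log2 4.55 ± 0.44, FDR 9.06e-05). Col4a1, a chain of the collagen IV network, stood instead at 656 and 1283 CPM in dermis against 5.51 and 2.92 (log2 -7.82 ± 0.52, FDR 1.68e-05), and Nid1, the laminin linker nidogen, at 429 and 517 against 1.73 and 0.573. Col7a1, the anchoring fibril collagen, was higher in dermis, at 383 and 979 CPM against 99.5 and 71.5 (log2 -2.99 ± 0.45, FDR 0.000888).

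Hair keratins did not follow the other keratins. The hair shaft and inner root sheath list had no gene higher in epidermis, 6 of 15 higher in dermis and 9 that did not pass. Of all tested genes 29.1% were higher in epidermis and 33.2% in dermis, so the dermal share of the list was near the background. The median of the list was -0.64 on the log2 scale. In the fit of all 12 spiny mouse libraries none passed, without epidermis library 2 the count was 2 and with scaling by library size alone it was 12. Krt71 (chromosome 15, 101733949 to 101743097), an inner root sheath keratin, stood at 357 and 151 CPM in epidermis and 561 and 799 in dermis (log2 -1.42 ± 0.41, FDR 0.0175), a call that was lost in the fit of all 12 spiny mouse libraries (FDR 0.391). Krt25, its type I counterpart, stood at 419 and 176 CPM against 589 and 587 (log2 -0.98 ± 0.38, FDR 0.0554), and passed as higher in dermis under 9 alternatives, among them DESeq2 (FDR 0.0193) and RLE (FDR 0.0404). Krt35, a keratin of the hair cortex and cuticle, was level, at 38.4 and 29.7 CPM against 34.8 and 36.9 (log2 -0.07 ± 0.22, FDR 0.787).

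**Figure D2:**
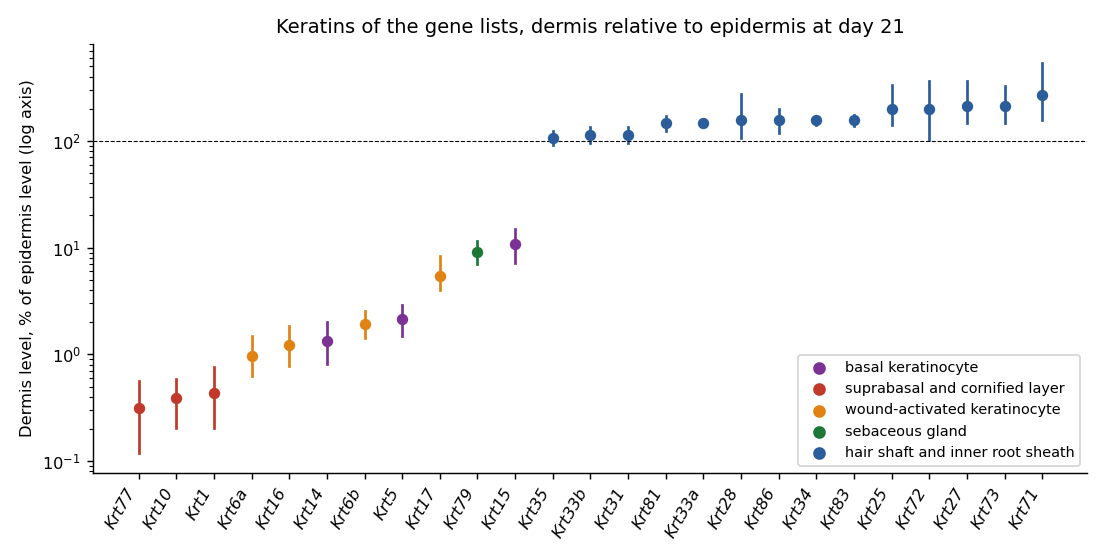
Dermis level of each keratin as a percentage of its epidermis level on a log axis. Points are the ratio of the layer means of 2 libraries, bars run from the lowest to the highest ratio of a dermis to an epidermis library, and the dashed line marks equal levels. Krt77, Krt10 and Krt1 lie under 1%, basal and wound keratins between 0.961% and 10.8%, and every hair keratin at or above 105%.

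Ordered by the dermis level as a percentage of the epidermis level, the suprabasal keratins came first and the hair keratins last. Krt77, Krt10 and Krt1 stood at 0.316%, 0.388% and 0.433%, and the ranges of their library ratios overlapped. Krt6a, Krt16, Krt14, Krt6b and Krt5 followed at between 0.961% and 2.15%, with each range overlapping its neighbour's and that of Krt6a reaching into that of Krt1. Krt17, Krt79 and Krt15, keratins that follicle and gland epithelium also makes, stood at 5.42%, 9.05% and 10.8%. The 14 hair keratins stood at between 105% for Krt35 and 268% for Krt71, and no range among them reached down to that of Krt15.

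Of the hair placode and follicle epithelium list, 7 of 18 tested genes were higher in epidermis, 3 were higher in dermis and 8 did not pass, beside 29.1% and 33.2% of all tested genes. Wnt10b and Dkk4, early placode genes, were higher in epidermis at low levels, Wnt10b at 9.16 and 10.4 CPM against 1.76 and 1.58 (log2 2.55 ± 0.31, FDR 0.000298) and Dkk4 at 2.11 and 2.12 against 0.0428 and 0.282. Shh, the hedgehog ligand of the placode, did not pass, at 8.46 and 3.73 CPM in epidermis and 1.97 and 4.51 in dermis (log2 0.91 ± 0.52, FDR 0.165). With 1 library left out the log2 fold change of Shh ran from 0.194 to 1.652. It was 1.65 without dermis library 2 and 1.38 without epidermis library 2. Edar was near 1 CPM in all 4 libraries. Lgr5, a Wnt-linked receptor of follicle stem cells, was higher in dermis, at 58.2 and 43.7 CPM against 1.70 and 0.802 (log2 -5.28 ± 0.38, FDR 2.42e-05). Of the sebaceous gland list 5 of 12 genes were higher in epidermis and 2 in dermis, beside the same shares of all tested genes.

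All 18 genes of the dermal condensate and papilla list were higher in dermis. Their median log2 fold change was -4.93, or -3.89 with Rspo2, which had no epidermis read, set at its bound. Rspo3, a Wnt amplifier of the papilla, stood at 47.7 and 39.0 CPM in dermis on 2495 reads, and 2 reads in epidermis gave a ratio of 1032 with a 95% counting interval of 286 to 8530. Alpl, the alkaline phosphatase by which papillae are stained, stood at 54.4 and 39.3 CPM against 0.801 and 0.172 (log2 -6.41 ± 0.51, FDR 3.54e-05). Sox18, a factor of papillae and of vessels, stood at 58.7 and 76.2 CPM against 1.22 and 0.401. Sox2, a factor of some condensates, was low, at 1.59 and 3.95 CPM against 0.288 and 0.401.

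**Figure D3:**
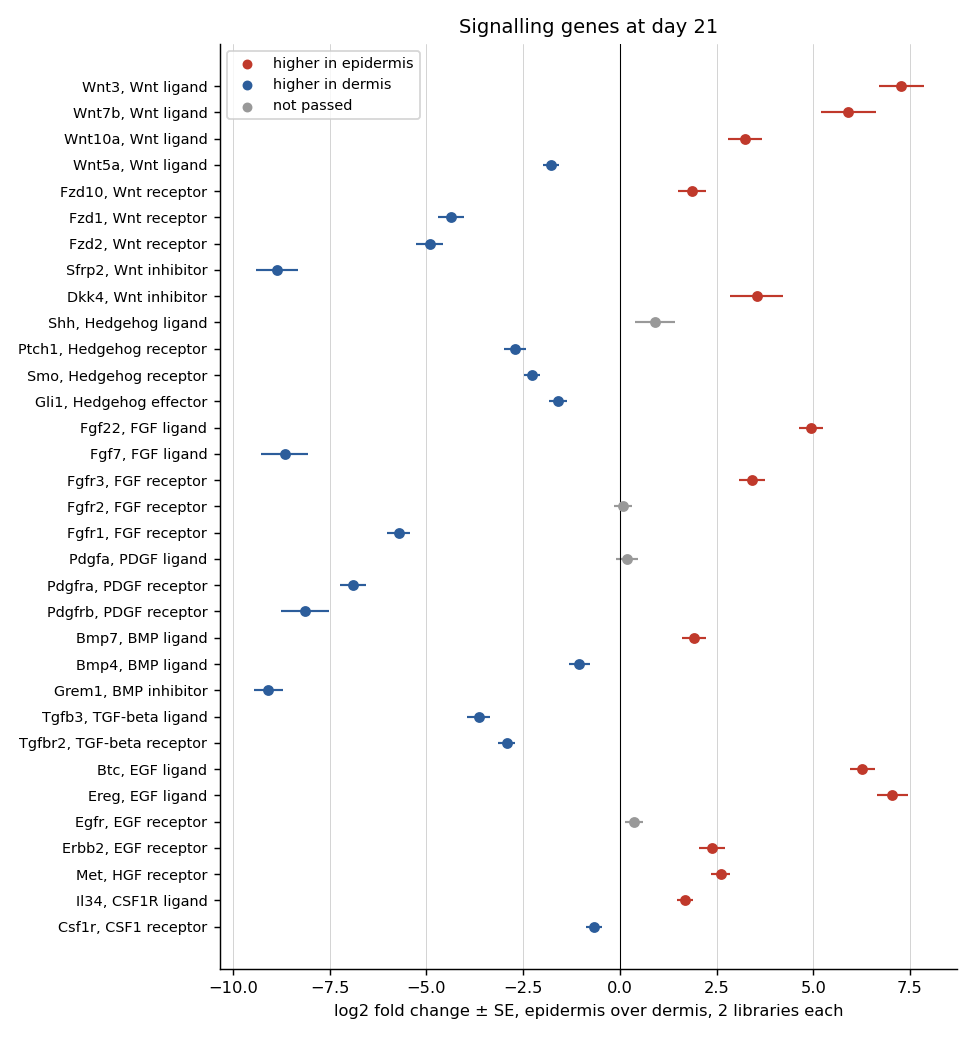
Log2 fold change of epidermis over dermis with its standard error for 33 signalling genes, 2 libraries a layer, coloured by whether the gene passed an FDR of 0.05. Wnt3, Wnt7b, Fgf22, Btc and Ereg lie on the epidermal side, most receptors and inhibitors on the dermal side, and Shh, Fgfr2, Pdgfa and Egfr near the middle.

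Over 9 lists of signalling genes, 14 of 51 tested ligands were higher in epidermis and 25 in dermis, 7 and 28 of 46 receptors, and 2 and 13 of 17 inhibitors. Over all tested genes the shares were 29.1% and 33.2%, so the ligands' epidermal share was near the background. In the Wnt list 6 of 12 ligands were higher in epidermis. Wnt3 (chromosome 11, 103774175 to 103818021) stood at 473 and 530 CPM in epidermis and 1.37 and 4.91 in dermis (log2 7.28 ± 0.58, FDR 3.79e-05), and Wnt7b at 38.7 and 28.7 against 0.0428 and 0.959. Wnt5a, a ligand of the non-canonical branch, was higher in dermis at 81.0 and 102 CPM against 27.2 and 26.1. Of the 10 Wnt inhibitors 8 were dermal, among them Sfrp2, a secreted decoy, at 84.1 and 165 CPM against 0.352 and 0.115 (log2 -8.87 ± 0.55, FDR 1.27e-05). Of the feedback targets, Nkd1 was higher in dermis, at 76.7 and 157 CPM against 0.961 and 1.15 (log2 -6.81 ± 0.45, FDR 1.61e-05), and Axin2 lay in the same direction without passing, at 31.1 and 73.9 against 30.3 and 25.3 (log2 -0.92 ± 0.38, FDR 0.0703). Axin2 passed as higher in dermis with DESeq2 (FDR 0.046) and with the likelihood ratio test (FDR 0.0388), among other settings. With 1 library left out its log2 fold change ran from -1.437 to -0.158, and its dermis library 1 lay close to epidermis library 1.

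Of the hedgehog pathway 11 of 12 tested genes were higher in dermis, including all 6 receptors and 3 effectors. Ptch1 (chromosome 13, 63508328 to 63573460), the hedgehog receptor and a target of the pathway, stood at 46.9 and 75.6 CPM in dermis and 9.71 and 9.05 in epidermis (log2 -2.71 ± 0.29, FDR 0.000148). Gli1, the pathway's transcriptional effector and readout, stood at 42.6 and 51.5 CPM against 17.0 and 13.9 (log2 -1.61 ± 0.23, FDR 0.000679). Smo, the signal transducer, stood at 91.8 and 107 CPM against 21.4 and 19.5.

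Of the FGF list 1 of 5 tested ligands was higher in epidermis and 4 in dermis, and 1 and 2 of 4 receptors. The shares over all tested genes were 29.1% and 33.2%. Fgf7 and Fgf10, mesenchymal ligands of an FGFR2 splice form of epithelium, were dermal, Fgf7 at 32.6 and 20.8 CPM in dermis with 3 reads in epidermis (ratio 413, 95% counting interval 141 to 2005). Fgf22 was epidermal, at 53.9 and 51.6 CPM against 1.29 and 2.09 (log2 4.94 ± 0.30, FDR 1.25e-05). Fgfr1 was dermal, at 382 and 550 CPM against 9.55 and 8.08, Fgfr3 epidermal, at 71.3 and 59.4 against 4.24 and 7.87, and Fgfr2 did not pass, at 147 and 150 in epidermis against 112 and 169 in dermis (log2 0.08 ± 0.24, FDR 0.779). Splice forms cannot be read from counts per gene.

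EGF ligands were epidermal, with 5 of 7 passing and none higher in dermis. Btc, betacellulin, stood at 46.9 and 64.9 CPM against 0.771 and 0.677 (log2 6.27 ± 0.32, FDR 7.09e-06) and Ereg, epiregulin, at 35.2 and 36.4 against 0.129 and 0.367. Egfr itself did not pass, at 15.7 and 16.2 CPM against 11.1 and 13.7 (log2 0.36 ± 0.24, FDR 0.222), while Erbb2, its dimerization partner, was higher in epidermis at 156 and 149 against 19.3 and 39.1. Of 8 TGF-beta and BMP ligands 7 were dermal, and Bmp7 was epidermal at 84.4 and 81.3 CPM against 15.3 and 28.7 (log2 1.91 ± 0.31, FDR 0.00122). Met, the receptor of hepatocyte growth factor, was epidermal, at 24.8 and 30.3 CPM against 4.71 and 4.34, while its ligand Hgf had no epidermis read and was at least 53.5-fold higher in dermis, at 10.8 and 7.61 CPM. Il34, a ligand of the CSF1 receptor that maintains Langerhans cells, was epidermal at 42.7 and 41.3 CPM against 12.9 and 13.1. Of the PDGF list 4 of 6 genes were dermal and none epidermal, of the Notch list 5 of 12 dermal and 1 epidermal, and of the ectodysplasin list 1 of 4 each. Among all tested genes 33.2% were dermal and 29.1% epidermal.

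Vessel, nerve and mast cell genes were dermal. All 10 blood endothelial genes (median -6.42), all 6 lymphatic genes (-6.48, or -5.95 with Prox1 at its bound), 6 of 7 pericyte genes and all 8 Schwann cell genes were higher in dermis. Their summed levels ran from 0.573 to 93.0 CPM in the epidermis libraries and from 83.9 to 1174 in the dermis libraries, and the pericyte sum in epidermis was mostly Notch3, which keratinocytes also make. Cdh5, the endothelial cadherin, stood at 79.7 and 89.3 CPM in dermis and 0.961 and 0.344 in epidermis. Of the mast cell list 5 of 6 genes were dermal, with Cpa3, a carboxypeptidase of mast cell granules, at 96.2 and 75.1 CPM against 0.128 and 0.115 (log2 -9.39 ± 0.36, FDR 5.43e-06). The exception was Hdc, the histidine decarboxylase that makes histamine, at 236 and 189 CPM in epidermis and 14.1 and 19.5 in dermis (log2 3.66 ± 0.26, FDR 2.06e-05), in epidermis libraries where Cpa3, Cma1, Tpsb2, Mcpt4 and Ms4a2 reached at most 0.352 CPM.

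Macrophage genes were dermal in 10 of 11 cases (median -4.01), Mrc1, the mannose receptor, at 142 and 95.9 CPM against 2.05 and 1.83. The exception was Itgam, an integrin of myeloid cells, at 29.6 and 36.6 CPM in epidermis against 14.2 and 13.7 (log2 1.24 ± 0.22, FDR 0.00219). Cd207, langerin, the defining gene of Langerhans cells, was epidermal at 155 and 150 CPM against 3.73 and 4.54 (log2 5.20 ± 0.23, FDR 5.85e-06), and 2 further genes of that list passed in the same direction and 1, Mfge8, in the opposite one. Of the 6 T cell genes 4 did not pass. The defining fat genes Adipoq and Lep reached at most 0.395 and 0.282 CPM in any library and the muscle factor Myod1 had no read, while 4 of 6 tested skeletal muscle genes were dermal. Of the 5 adipocyte genes tested 2 were higher in epidermis and 2 in dermis, Plin1, the coat protein of fat droplets, having no epidermis read and being at least 4.92-fold higher in dermis. Fabp4, a fatty acid binding protein of fat and capillaries, was epidermal at 1460 and 1054 CPM against 231 and 116 (log2 2.86 ± 0.38, FDR 0.000469), and it has close relatives in the same family that may share its reads. Red blood cell genes were dermal in 4 of 4 cases, and melanocyte genes were divided (2 of 5 epidermal and 1 dermal). Among all tested genes 29.1% were epidermal and 33.2% dermal.

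**Figure D4:**
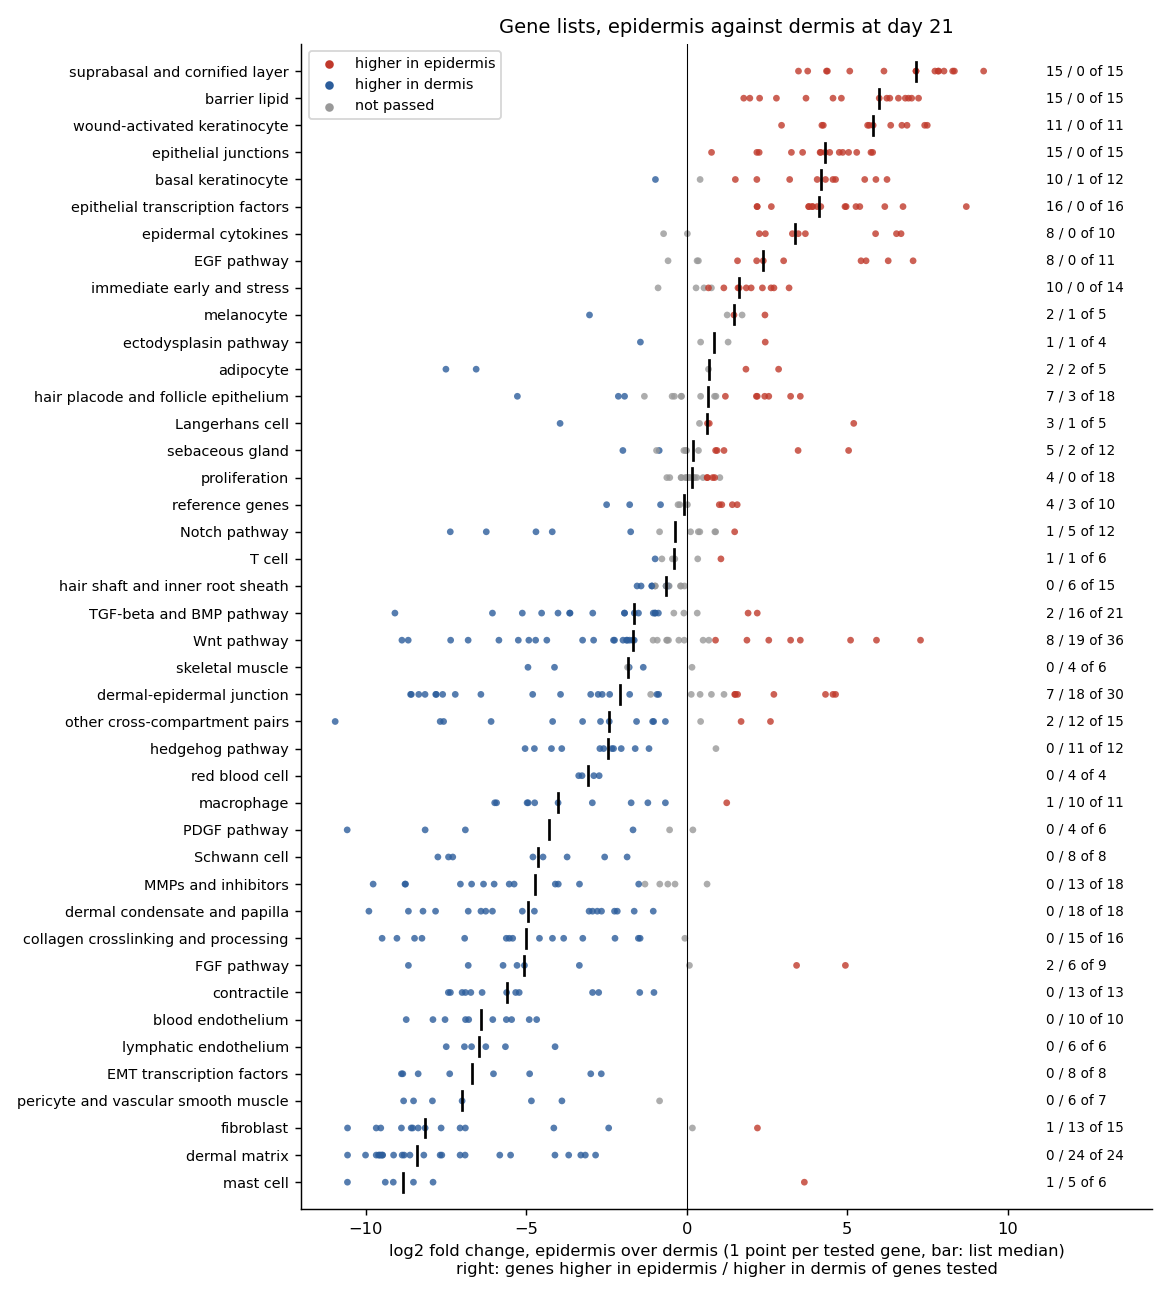
Log2 fold change of epidermis over dermis for each tested gene of the 42 gene lists, 1 point per gene, with a bar at the list median and, at the right, how many genes were higher in epidermis and in dermis of those tested. Lists of the cornified layer and barrier lie at the top, matrix, fibroblast and mast cell lists at the bottom, and cell division genes near 0.

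Cell division genes were close to level in the layers. Of 18 tested genes 4 were higher in epidermis and none in dermis, against 62.4% of all tested genes in either direction, and the list median was 0.16. Without epidermis library 1 none of the 18 passed. Mki67, the Ki-67 antigen, stood at 41.6 and 39.5 CPM in epidermis and 32.2 and 24.9 in dermis (log2 0.51 ± 0.22, FDR 0.0767), and Cdk1 at 55.4 and 63.0 against 67.6 and 50.4 (log2 0.01 ± 0.22, FDR 0.984). Pcna, the sliding clamp of replication, passed with 48.7 and 43.6 CPM against 29.8 and 23.0 (log2 0.81 ± 0.22, FDR 0.0148).

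Cytokines of keratinocytes were epidermal in 8 of 10 cases. Il18 stood at 320 and 297 CPM against 3.68 and 3.02 (log2 6.53 ± 0.25, FDR 5.43e-06) and Ccl20, a chemokine for Langerhans cell precursors and T cells, at 91.9 and 74.6 against 0.557 and 1.02. Il1b was level, at 48.8 and 53.2 CPM against 48.8 and 51.9 (log2 0.02 ± 0.19, FDR 0.94).

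Immediate early and stress genes, which can be switched on while tissue is handled, were higher in epidermis in 10 of 14 cases and in dermis in none (median 1.61). Fos stood at 4053 and 4455 CPM in epidermis and 596 and 1067 in dermis (log2 2.36 ± 0.35, FDR 0.000849), and Dnajb1, a heat shock co-chaperone, at 1281 and 1130 against 113 and 152. Dermis library 2 was the higher of its pair for all 14 genes of the list, with Fosb at 47.7 and 254 CPM, and the summed list level was 2140 CPM in dermis library 1 and 4919 in library 2. The part of tissue handling in these differences was not tested. Since freezing and grinding are described for the dermis alone, handling and layer cannot be told apart.

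Replicate libraries were closer in epidermis than in dermis. Among genes of at least 50 CPM, 16 of 3917 (0.409%) differed over 2-fold between the epidermis libraries and 127 of 3692 (3.44%) between the dermis libraries. In epidermis the largest ratios were those of Col1a2, Col3a1, Aqp3, Mir6236 and Lars2, higher in library 1 by 3.24 to 10.01 times, and those of Lyst, Dsc1, Tanc1, Tcaf2 and Clca3b, higher in library 2 by 1.57 to 1.63 times. In dermis they were those of C1qb, Irf7, 2010107E04Rik, Rps21 and Gm15421, higher in library 1 by 2.33 to 2.89 times, and those of Nr4a3, Fosb, Zfp36, Polr2a and Notch3, higher in library 2 by 3.62 to 5.83 times. Across 9157 genes of at least 10 CPM, which share these libraries, the ratio of dermis library 2 to library 1 had a Spearman correlation of 0.279 with transcript length and 0.388 with GC content. The corresponding values were 0.251 and -0.390 for the epidermis pair and -0.227 and -0.026 for the fold change between layers.

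The layer difference at PWD21 was then set against that of other days, in a fit of all 12 spiny mouse libraries. Group means of the other days had the same sign for 95.3% and 93.1% of the genes higher in epidermis at PWD21 on PWD14 and PWD28, and for 72.3% on PWD0, the unwounded skin. For genes higher in dermis these shares were 92.0%, 89.9% and 74.3%. PWD0 held 1 epidermis and 2 dermis libraries, PWD14 2 and 1, and PWD28 1 of each, so that values for those days rest on fewer libraries.

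The layer difference changed between PWD0 and PWD21 for 3709 of 15942 genes (23.3%), with 1828 (11.5%) shifted towards epidermis and 1881 (11.8%) towards dermis. Keratinocyte lists shifted towards epidermis in common: 8 of 12 basal genes, 12 of 15 suprabasal, 9 of 11 wound-activated, 9 of 15 barrier lipid, 8 of 15 junction and 8 of 16 epithelial factor genes. Krt6a, on the scale of the 12 libraries, stood at 16.1 CPM in the PWD0 epidermis library and 90.6 and 44.6 in PWD0 dermis, and at 2476 and 1630 in PWD21 epidermis and 15.3 and 23.5 in PWD21 dermis (log2 difference between days 8.80 ± 0.78, FDR 0.000248). Krt6a has a near copy in Krt6b, which may share its reads. Hedgehog genes shifted towards dermis in 8 of 12 cases, TGF-beta and BMP genes in 11 of 21, Wnt genes in 14 of 36 and basement membrane genes in 12 of 30. Other lists did so in part, among them collagen crosslinking and processing (6 of 16), MMPs and inhibitors (6 of 18) and dermal matrix (7 of 24). Ptch1 stood at 21.4 CPM in PWD0 epidermis against 2.98 and 8.57 in PWD0 dermis, the opposite order to PWD21 (log2 difference -4.53 ± 0.63, FDR 0.00146).

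The genes with the largest shifts towards dermis were Egfl6, Gpc3, Prss35, Adam12 and Adamts17. Egfl6 had 0 and 0.384 CPM in PWD0 dermis and 413 and 335 in PWD21 dermis, with under 0.5 in all 3 epidermis libraries (log2 difference -12.13 ± 1.26, FDR 0.000619). Gpc3, a glypican that binds growth factors at the cell surface, stood at 30.9 and 40.2 CPM in PWD0 dermis and 3069 and 2169 in PWD21 dermis. In epidermis it was lower at PWD21, at 47.7 CPM in the single PWD0 library and 4.01 and 3.94 at PWD21. Both layers thus enter its shift (log2 difference -9.78 ± 0.50, FDR 3.12e-05). The matrix genes Tnc, tenascin-C, and Mmp11 moved the same way, Tnc from 39.3 and 19.1 CPM in PWD0 dermis to 1859 and 1440 in PWD21 dermis (log2 difference -5.94 ± 0.53, FDR 0.000248). Col1a1 did not pass (log2 difference 0.92 ± 1.30, FDR 0.651). Without epidermis library 1 of PWD21 the count of changed genes was 1822, without library 2 it was 1958, and without dermis library 2 of PWD21 it was 2345.

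**Figure D5:**
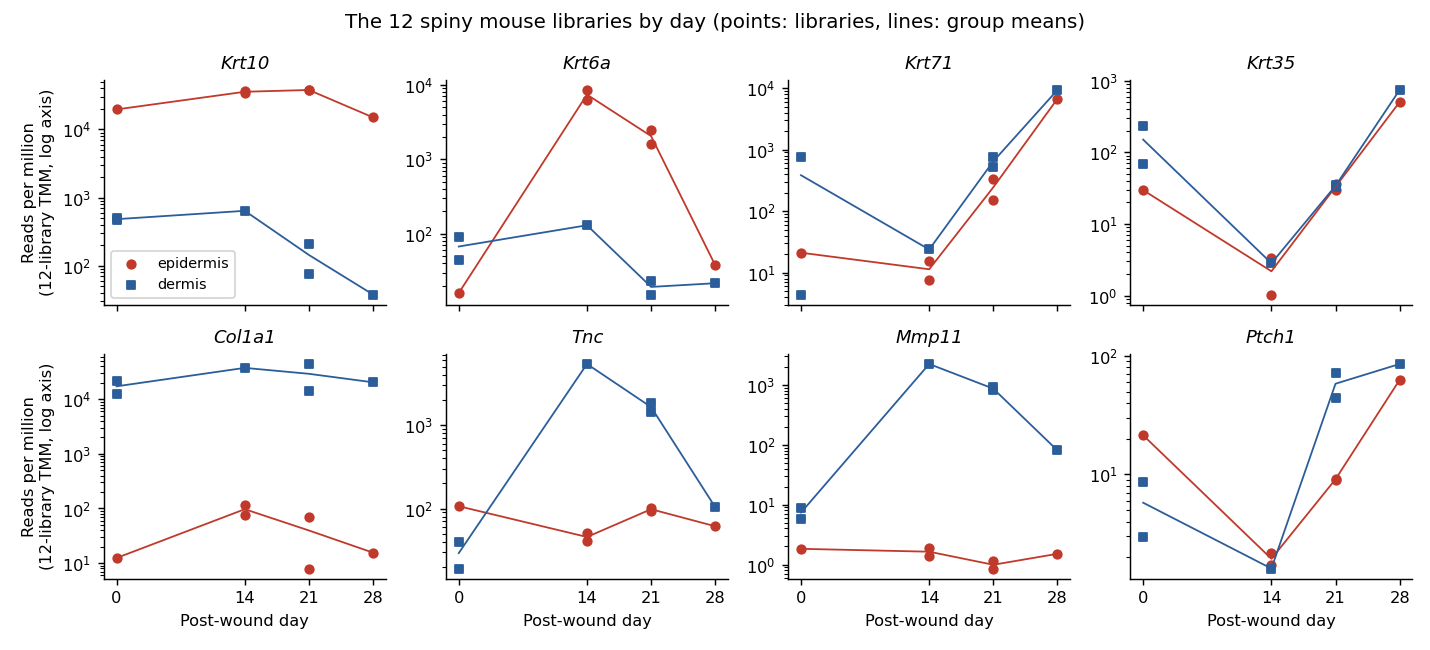
Levels of 8 genes in the 12 spiny mouse libraries by post-wound day, in TMM-scaled CPM on log axes, with points for libraries and lines through group means (circles epidermis, squares dermis). Krt71, Krt35 and Ptch1 are higher on day 28 than on day 21 in both layers, Krt6a in epidermis and Tnc and Mmp11 in dermis are highest on day 14, and Krt10 is higher in epidermis and Col1a1 in dermis on every day.

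Krt24 and the hair keratin-associated proteins Krtap15, Krtap13-1, Krtap7-1 and Krtap8-1 had the largest shifts towards epidermis. At PWD21 itself none of the Krtap genes had a higher mean in epidermis than in dermis. Krtap15 stood at 9.39 CPM against 10.3 in dermis and Krtap13-1 at 7.13 against 8.81. Krtap7-1 stood at 14.2 against 28.4 and Krtap8-1 at 19.85 against 25.9. The Krtap genes rested on dermis library 2 of PWD0, where Krtap15 stood at 2630 CPM against 2.81 in library 1, and without that library Krtap15 and Krtap13-1 did not pass (log2 differences 2.91 and 2.76, FDR 0.0633 and 0.0622) and those of Krtap7-1 and Krtap8-1 were 4.29 and 4.10. All 4 calls were also lost in the fit of only the 4 groups compared (FDR 0.0582 to 0.0678) and on leaving out any PWD21 library (FDR 0.0523 to 0.0876). None of the 15 hair shaft and inner root sheath genes passed against PWD0, although their median log2 difference between days was 4.81 towards epidermis. For the 8 hair keratins among them it was 8.83, so an unchanged layer difference cannot be read from this. Krt71 at PWD21 lay between the flanking days in both layers: it stood at 7.47 and 15.1 CPM in epidermis and 23.7 in dermis on PWD14, at 338 and 150 against 528 and 764 on PWD21, and at 6720 against 9368 on PWD28. These values by day are a description without a test.

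Against PWD14, the layer difference changed for 2 of 15942 genes (0.0125%) by edgeR's quasi-likelihood test, although 2017 had an unadjusted p under 0.05, and DESeq2 called 368. Syndig1, which encodes a synapse-linked membrane protein, shifted towards epidermis, at 55.7 and 71.2 CPM in PWD21 epidermis and 16.4 and 14.1 in PWD14 epidermis, with 7.66 and 6.74 in PWD21 dermis and 18.9 in the single PWD14 dermis library (log2 difference 3.45 ± 0.39, FDR 0.033). Pinlyp, an inhibitor of phospholipase A2, shifted towards dermis, at 226 and 208 CPM in PWD21 epidermis and 455 and 455 in PWD14 epidermis, with 24.4 and 20.03 in PWD21 dermis and 4.50 in PWD14 dermis (log2 difference -3.37 ± 0.38, FDR 0.033). Both calls were lost with scaling by library size alone (FDR 0.0638) and on leaving out any PWD21 or PWD14 epidermis library or any PWD21 dermis library (FDR 0.0596 to 0.252). No member of the 42 lists passed against PWD14.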

How the data were processed

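Each library came as a table of whole-number counts by gene symbol, which the authors deposited without normalization. Per the study's methods and the submitters' processing notes, reads were single-end and not strand-specific, from TruSeq libraries of polyA RNA, aligned to mm10 with STAR and counted with htseq-count (HTSeq 0.6.0) on RefSeq genes. The STAR version of the processing notes (2.4.1d) differs from that of the methods. Counting without strand cannot separate overlapping antisense genes. The labels put the samples on PWD21, while a supplementary sheet of the study gives a neighbouring day. Each file held 24500 symbols and 5 summary lines, which were left out.

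Counts were scaled by TMM, filtered with filterByExpr and tested with the quasi-likelihood test of edgeR 4.0.16 (R 4.3.3, limma 3.58.1; prior count 0.125) over all tested genes with Benjamini-Hochberg adjustment (FDR). The layers were compared in the 4 PWD21 libraries. Differences between days were interaction terms in a fit of all 12 spiny mouse libraries. SE is that of the log2 fold change. The test was checked on simulated counts of 2 against 2 libraries with 200 genes changed, far fewer than passed in the data. There the share of false calls came out above the nominal FDR. Counting intervals are exact binomial, at 95%, and cover counting error only. Bounds use 3 counts in the library where they weigh most.

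Gene lists were chosen with earlier results of these data known. Genes are named by rule: the 15 furthest apart in each direction by fold change, passing, not overlapping and at a mean of at least 50 CPM, 5 in each direction for each difference between days and for each library pair, and of each list those of highest CPM and those against the list's direction. Further list members were chosen after their values were seen. Positions are from RefSeq on GRCm38 (23535 symbols matched), and length and GC are those of the longest GENCODE transcript (97.6% of tested genes). Alternatives were DESeq2 1.42.0, the likelihood ratio test, a test against a 2-fold change, RLE, library size alone, no filter, at least 10 counts in every library, other sets of libraries in the fit and each library left out.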

Additional observations from a re-analysis of the deposited data

Results flagged for a closer look

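The difference between the layers was larger or smaller at PWD21 than at PWD0 for 3709 genes, by a test of the interaction itself, and those named by size were 10. Towards epidermis these were Krtap15 (log2 difference between days 11.78), Krtap13-1 (11.08), Krtap7-1 (10.94), Krtap8-1 (10.08) and Krt24 (9.22). Towards dermis they were Egfl6 (-12.13), Gpc3 (-9.78), Prss35 (-9.26), Adam12 (-8.75) and Adamts17 (-8.45). The Krtap genes stood far apart within the PWD0 dermis pair, Krtap7-1 at 3.51 and 709 CPM, and PWD0 epidermis was a single library. At PWD21 none of the Krtap genes had a higher mean in epidermis than in dermis.

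Against PWD14 the layer difference changed for 2 genes, Syndig1 (log2 difference 3.45) and Pinlyp (-3.37). Both calls were lost with scaling by library size alone and when any 1 library of PWD21 or of PWD14 epidermis was left out, and PWD14 dermis was a single library.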

How the results depend on the processing

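No paired analysis was possible because the labels do not say which epidermis and dermis came from the same animal. The count of genes that differed between layers (9333) stayed between 7289 and 9910 under DESeq2, the likelihood ratio test, RLE, library size alone, no filter, at least 10 counts in every library and the fit of 12 libraries, was 7621 to 9822 with 1 library left out, and was 5603 in the test against a 2-fold change. With library size alone the median log2 fold change of all genes was -0.18 in place of -0.06. For the difference from PWD0 (3709), leaving out 1 library gave 1822 to 4493, and with library size alone 1348 genes shifted to epidermis and 2233 to dermis, in place of 1828 and 1881. For the difference from PWD14 (2), DESeq2 gave 368, the likelihood ratio test 585, no filter 669, the 4 groups alone 25, at least 10 counts 4, library size alone 0, and leaving out 1 library 0 to 1. Genes that had not passed changed sign: Cdk1 was at -0.005 with DESeq2 and with RLE, -0.119 with at least 10 counts, -0.116 with library size alone and -0.046 without a filter, Il1b at -0.109, -0.099 and -0.039 under the last 3 of these, and Fgfr2 at -0.047 with at least 10 counts and -0.030 with library size alone. With 1 library left out the log2 fold change ran from -0.764 to 1.013 for Plod2, -0.253 to 1.182 for Mmp9, -2.541 to 2.098 for Mmp13, -0.263 to 0.108 for Krt35, -0.216 to 0.414 for Fgfr2, -0.108 to 0.531 for Pdgfa, -1.523 to 0.363 for Notch3, -0.190 to 0.199 for Cdk1, -0.058 to 0.088 for Il1b and -1.672 to 0.770 for Fosb, and the difference of Col1a1 from PWD0 from -1.399 to 1.956. Among these, calls were gained in opposite directions by Mmp13 (FDR 2.8e-07 without epidermis library 1 and 0.0427 without dermis library 1) and Fosb (0.000215 without dermis library 1 and 0.0313 without dermis library 2), and in epidermis by Mmp9 (0.00512 without epidermis library 2) and Plod2 (0.049 without dermis library 1). Krt25, Axin2, Shh and Notch3 gained calls under several settings. The cause was not tested.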
